A study of Drosophila melanogaster with 16 samples.

Results

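Neuroectodermal cells purified from stage 11 Drosophila melanogaster embryos that overexpressed gcm were compared with the same kind of cells purified from control embryos. The arrays were chosen by their titles, and 7 distinct sorted arrays were compared, out of 15 distinct arrays in the series. The gcm group came from embryos with forced gcm, labelled scagcm. The control group came from wild-type embryos. In both groups the neuroectodermal cells carried mCD8-GFP, a membrane protein joined to a fluorescent tag, and were bound by anti-mCD8 microbeads after the embryos had been dissociated. Whole embryos, gcm and control, were measured without purification. The driver that expressed gcm and mCD8-GFP, the purity of the sort and the number of embryos behind each array are not stated in the sources used here. The titles list sorted gcm arrays 1 to 4, but arrays 2 and 3 were identical in all 14010 probe sets and were counted as 1. This left 3 sorted gcm arrays, called 1, 2 and 4 below, and 4 sorted control arrays. Separate embryo collections for the arrays are not stated in the labels, and the p-values reflect the spread between arrays only, which may be technical.

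The gene gcm (glial cells missing, also called glide) encodes a transcription factor that switches neural precursors of the fly embryo to the glial fate. It acts upstream of repo, a homeobox gene expressed in almost all lateral glia, and of other glial regulators. In its absence presumptive glia become neurons, and forced gcm turns presumptive neurons into glia. Glia of the embryo ensheath axons, build the blood-brain barrier and engulf dying cells. The comparison asked which transcripts differ when gcm is raised in the cells that respond to it.

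Each level is a normalised intensity plus 16 on the log2 scale, and a change is the mean level in gcm cells minus that in control cells, on the same scale. Levels under 5, from an intensity below 16, lie near the bottom of the scale. Before normalisation the trimmed mean intensity was 89.1 to 114 on the gcm arrays and 66.8 to 106 on the control arrays. Correlations across probe sets were 0.912 to 0.971 between arrays of the same group and 0.907 to 0.962 between arrays of different groups. The log2 ratio of 3' to 5' actin probe sets, a sign of RNA length, was 1.73 to 2.23 in gcm cells and 1.61 to 1.76 in control cells, and for eIF-4a it was 0.90 to 1.05 in gcm cells and 0.89 to 1.21 in control cells. The control arrays differed widely among themselves in a small block of probe sets. In 31 probe sets the SD among control arrays was over 1.5, against 1 probe set among gcm arrays. In 24 of these 31, control arrays 1 and 3 were lowest and control array 4 was highest, with every gcm array above controls 1 and 3. None of the 31 passed the test described next, and how this spread arose was not tested. The whole-embryo array labelled control 3 went against its label, with gcm at 13.10 and repo at 10.77, against 8.07 to 8.66 for gcm and 6.14 to 6.32 for repo in the remaining whole controls, and was left out of the whole-embryo values.

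Of 13966 probe sets tested with limma, 37 were called at an adjusted p under 0.05, which is 0.265% of them. Of these, 30 were higher in gcm cells (0.215%) and 7 were lower (0.0501%). An unadjusted p under 0.05 was reached by 1134 probe sets. The 30 higher probe sets represent 27 named genes and 1 probe set that the platform table assigns to several genes, 152093_at, and their changes ran from 0.62 to 3.48 with a median of 1.86. The 7 lower probe sets represent 6 genes, with changes of -0.93 to -1.49 and a median of -1.23. Across all probe sets the median change was -0.01. In all 37 the gcm and control arrays did not overlap, a separation found in 9.06% of all probe sets. Leaving out 1 array at a time moved the count of calls to between 18 (without control 1) and 39 (without control 4), with 19 without gcm 4, 21 without gcm 2 and 22 without control 3. Of the 37 calls, 16 were kept whichever array was left out (15 higher, 1 lower), among them gcm, repo, moody, Ect3, Nagk, CG12910, CG9541, MFS16, Cyp305a1 and shep, and 4 were kept in no such fit (Start1, CG11703, dlg1 and meru).

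**Figure D1:**
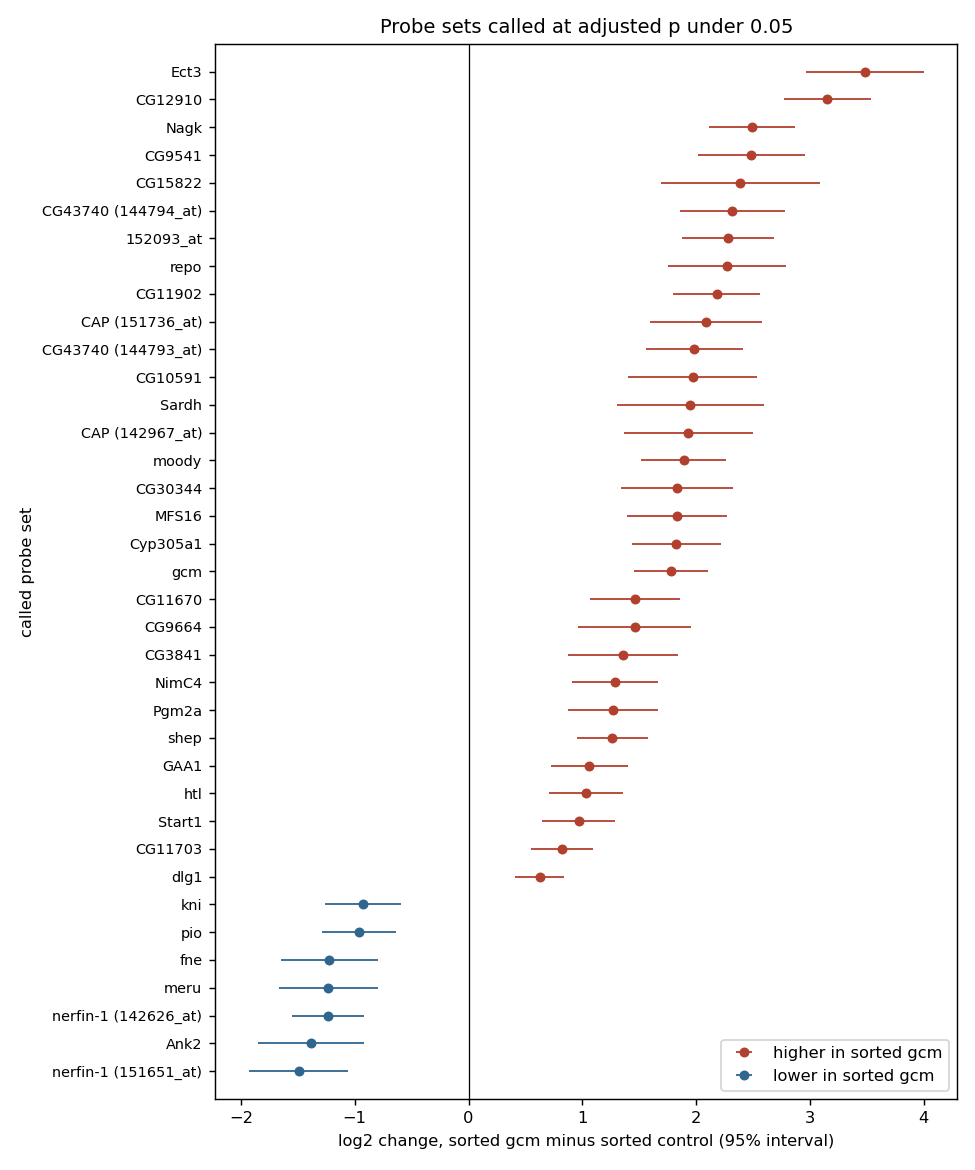
Log2 change, gcm minus control, of the 37 called probe sets in purified cells, with 95% intervals and the zero line. Red points lie right of zero (30 higher in gcm cells, up to 3.48 for Ect3) and blue points lie left of it (7 lower, down to -1.49 for nerfin-1).

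The overexpressed gene itself was the first check of the labels. The level of gcm was 12.86, 12.70 and 12.76 on gcm arrays 1, 2 and 4, against 11.25, 10.91, 11.02 and 10.78 on control arrays 1 to 4. All gcm arrays lay above all control arrays, by a gap of 1.44. The change was 1.78 (SE 0.15, 95% interval 1.45 to 2.11, adjusted p = 7.81e-04), or 3.43-fold. In gcm cells the highest mean level of any probe set was 13.32, and whether the gcm signal was near saturation was not tested. The sources used here do not say which gcm transcript, endogenous or forced, the probe set reads. The neighbouring paralog gcm2, which shares the DNA-binding domain of gcm and part of its glial function, was at 6.50 ± 0.18 (SD, n = 3) in gcm cells and 6.47 ± 0.09 (SD, n = 4) in control cells. Its change was 0.03 with a 95% interval of -0.39 to 0.44 (adjusted p = 0.987), an interval that leaves out a change as large as that of gcm.

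Among the regulators that act early in glia, repo rose with gcm. Its level was 10.54, 10.37 and 10.80 on the gcm arrays, against 8.72, 8.15, 8.59 and 7.74 on the control arrays. The groups were separated by 1.65, and the change was 2.27 (SE 0.23, adjusted p = 0.00297), or 4.82-fold. Of the 6 early glial regulators measured, gcm and repo were called higher and none lower, and the median change of the list was 0.52, against -0.01 over all 10844 genes. The list includes gcm, the overexpressed gene, so that call and its part in the median came from the design. With the mean over the probe sets of each gene the median was 0.27. The regulator of G-protein signalling loco, a known gcm target in glia, had a change of 0.63 (adjusted p = 0.234) with no overlap between the groups. The zinc-finger gene hkb, used in some glial lineages, had 0.42 (adjusted p = 0.849), and kn, a COE-family factor of the blood and nervous system, had -0.02. These are arrays of mixed cells, so in every comparison here a different number of cells of a type and a different amount of RNA per cell cannot be told apart.

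**Figure D2:**
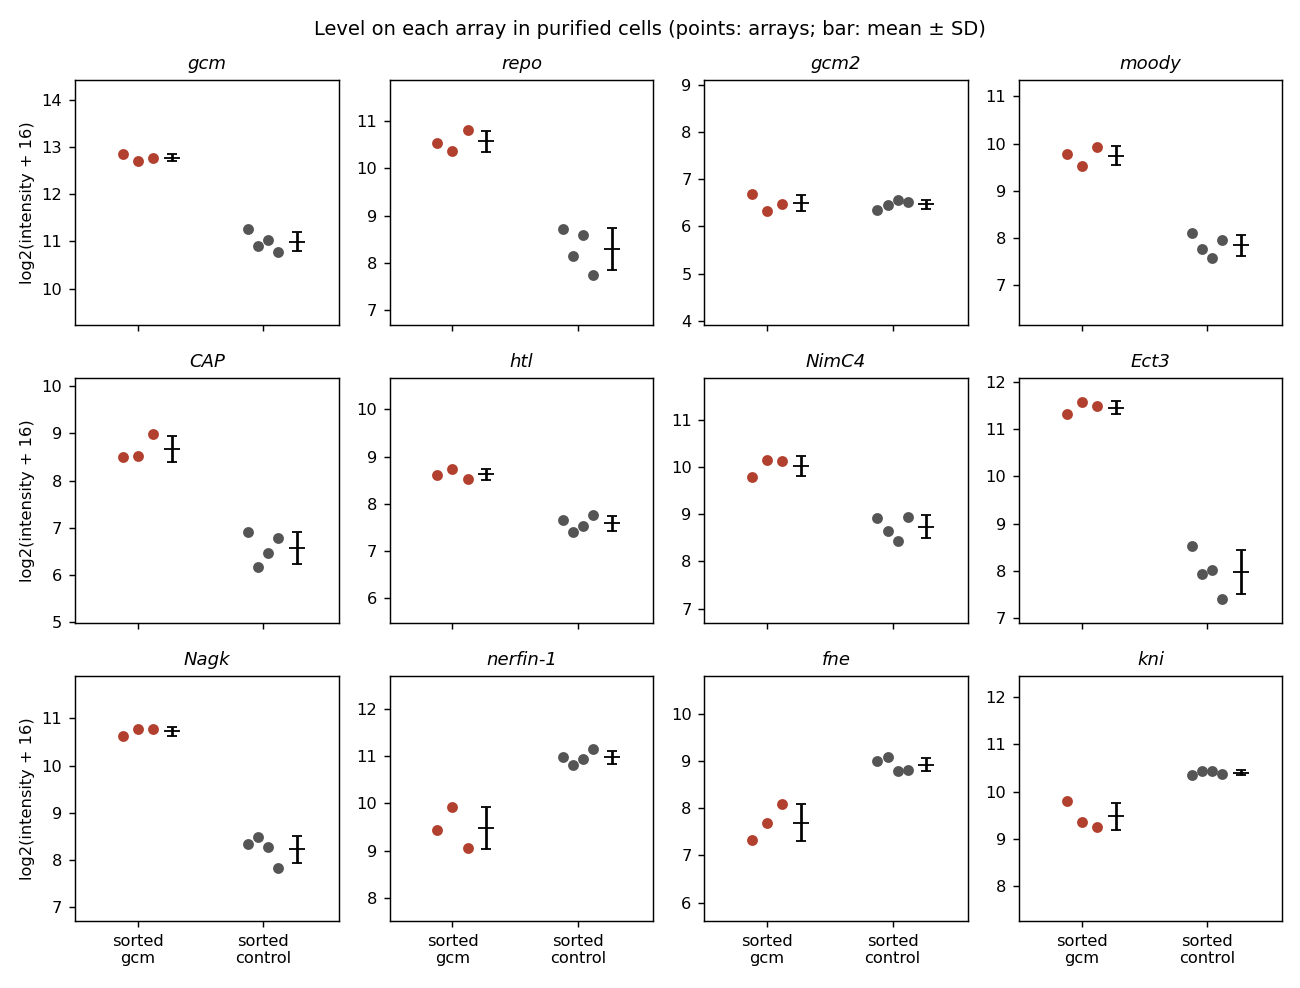
Level, log2 of intensity plus 16, of 12 genes on each array of purified cells, with gcm arrays left in red, control arrays right in grey, and the mean ± SD as a bar beside each group. The groups do not overlap for 11 of the genes, and for gcm2 the points of both groups cover the same range near 6.5.

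Of the genes that build the glial sheath, moody rose. The gene moody, whose G-protein-coupled receptor is needed for the blood-brain barrier, was at 9.78, 9.52 and 9.92 in gcm cells, against 8.10, 7.77, 7.58 and 7.95 in control cells. The change was 1.89 (SE 0.17, adjusted p = 0.00115), and the gap between the groups was 1.42. It was the only called gene of 15 barrier and septate junction genes, a list whose median change was -0.20. Of the 15 genes 6 had positive and 9 had negative changes. The septate junction genes Cont (-0.17), Nrg (0.07), kune (0.03) and sinu (0.15) had small changes that were not called. The largest rises after moody, crok (0.74, adjusted p = 0.555) and pck (0.54, adjusted p = 0.294), were not called either. The groups did not overlap for pck and overlapped for crok. The sodium pump subunit nrv2, a widely used glial marker, had -0.56 (adjusted p = 0.389), and the junction scaffold vari had -1.39 (adjusted p = 0.327) with an SD of 0.72 among control arrays. The junction genes are also expressed in epidermis, so the list is not specific to glia.

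The FGF receptor gene htl, which glia and mesoderm use for migration and ensheathment, was at 8.60, 8.74 and 8.52 in gcm cells, against 7.67, 7.40, 7.53 and 7.75 in control cells. The change was 1.03 (adjusted p = 0.0229), and the lowest gcm array lay 0.77 above the highest control array. This call was kept without 1 array in 1 of 7 cases. Its ligand gene pyr had a change of 1.14 that was not called (adjusted p = 0.635), with an SD of 1.20 among control arrays, and the ligand gene ths had -0.08. Of 12 EGFR and FGF signalling genes, htl was the only one called, and the median change was -0.10. The mesoderm also expresses htl, and the mesoderm and muscle list had 13 measured genes, none called, and a median of 0.09, with summed intensities of 2198 to 3121 in gcm cells and 1937 to 2799 in control cells. Of these genes 9 had positive and 4 had negative changes. The groups did not overlap for 2 of them, Him (0.57, adjusted p = 0.396) and nau (0.27, adjusted p = 0.822), a separation found in 9.06% of all probe sets. The part of mesoderm cells in the change of htl was not tested.

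The scaffold gene CAP, whose product links membrane proteins to the cytoskeleton, was at 8.51, 8.53 and 8.99 in gcm cells, against 6.92, 6.17, 6.46 and 6.79 in control cells, on the brightest of its 4 probe sets. The change was 2.09 (adjusted p = 0.00351). A second CAP probe set changed by 1.93 (adjusted p = 0.0133), a call kept in 3 of 7 cases when 1 array was left out. The other two, which were dimmer, had 0.56 and 0.38 and were not called. CAP and htl were the called genes among 13 genes of glial transport, adhesion and signalling, and the median of that list was -0.08. Markers of later glia in this list were not called. The glutamate transporter Eaat2 had a level of 4.70 in gcm cells and 4.54 in control cells, the GABA transporter Gat 4.83 in gcm cells and 4.91 in control cells, and the glutamine synthetase Gs2 6.14 in gcm cells and 6.22 in control cells. The astrocyte marker alrm was at 5.35 in gcm cells and 4.88 in control cells, without overlap (change 0.47, adjusted p = 0.601). The innexins Inx2 (-0.58, adjusted p = 0.456) and ogre (-0.38, adjusted p = 0.377) were bright in both groups and not called.

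Glia clear dying neurons, and 1 receptor of that process rose. NimC4, also named simu, a receptor that glia and macrophages use to bind apoptotic cells, was at 9.78, 10.15 and 10.12 in gcm cells, against 8.91, 8.65, 8.43 and 8.94 in control cells. The change was 1.28 (SE 0.17, adjusted p = 0.0133), with a gap of 0.84. With 1 array left out it ran from 1.19 to 1.40, and the call was lost without control 1, control 2, gcm 2 or gcm 4. The engulfment receptor drpr, which acts downstream of NimC4, was at 10.32 ± 0.05 (SD, n = 3) in gcm cells and 9.81 ± 0.13 (SD, n = 4) in control cells, a change of 0.51 that was not called (adjusted p = 0.233) although the groups did not overlap. Of 10 engulfment and scavenger receptors, NimC4 was the only one called and the list median was -0.07. The summed intensity of the list was 2694 to 2982 in gcm cells and 1792 to 1997 in control cells, and without NimC4 it was 1737 to 1882 in gcm cells and 1316 to 1669 in control cells. Several of these receptors also mark hemocytes, the macrophages of the fly, in which gcm is active. Of 16 hemocyte markers none was called and 14 had negative changes, with a median of -0.27 and a summed intensity of 1198 to 1462 in gcm cells and 1302 to 4084 in control cells. The hemocyte gene Hml was at 5.13 to 5.53 in gcm cells and 5.30 to 6.65 in control cells. The hemocyte receptor genes NimC1 (4.12 in gcm cells, 4.15 in control cells) and eater (4.44 in gcm cells, 4.67 in control cells) were under the level of 5.

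The highest rise in purified cells was in a lysosomal enzyme. Ect3, which encodes a beta-galactosidase, was at 11.32, 11.57 and 11.48 in gcm cells, against 8.53, 7.94, 8.02 and 7.40 in control cells. The lowest gcm array lay 2.78 above the highest control array, and the change was 3.48 (SE 0.23, adjusted p = 2.72e-04), or 11.2-fold. Nagk, an N-acetylglucosamine kinase that salvages amino sugars, was at 10.62, 10.78 and 10.78 in gcm cells, against 8.35, 8.49, 8.27 and 7.83 in control cells, a change of 2.49 (SE 0.17, adjusted p = 2.72e-04). Of 13 lysosomal and sugar catabolism genes these 2 were called, and the list median was 0.18. The other beta-galactosidase gene, Gal, was at 4.57 in gcm cells and 4.89 in control cells. The protease gene CtsL1 had 0.99 (adjusted p = 0.146) without overlap, and Hexo2, fdl and Lamp1 had -0.01, 0.08 and 0.09.

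Other metabolic and transport genes also rose. Sardh, the sarcosine dehydrogenase of mitochondria, was at 6.25, 7.24 and 6.97 in gcm cells, against 4.75, 5.23, 4.73 and 4.77 in control cells (change 1.95, adjusted p = 0.0297). MFS16, a predicted major facilitator transporter, was at 7.65, 7.68 and 7.66 in gcm cells, against 5.55, 5.98, 6.11 and 5.70 in control cells (change 1.83, adjusted p = 0.00374). The cytochrome P450 gene Cyp305a1 changed by 1.83 (adjusted p = 0.00192). MFS16 and Cyp305a1 were nearly equal on all gcm arrays, whereas the Sardh levels spread over more of the scale. The Sardh call was kept in 2 of 7 cases when 1 array was left out, with changes of 1.74 to 2.24. Pgm2a, a phosphoglucomutase, changed by 1.27, GAA1, of the complex that attaches GPI anchors, by 1.06, and Start1, a protein with a lipid-binding START domain, by 0.97. The RNA-binding protein gene shep changed by 1.26 on 1 of its 3 probe sets (adjusted p = 0.00471).

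Many of the rises were in genes known only by an annotation number. CG12910 was at 10.12, 9.79 and 9.90 in gcm cells, against 7.03, 6.64, 6.94 and 6.52 in control cells, and its change of 3.15 (SE 0.17, 8.89-fold, adjusted p = 1.01e-04) was second in size. CG9541 was at 7.22, 6.98 and 7.10 in gcm cells, against 4.65, 4.71, 4.55 and 4.56 in control cells. It lay near the bottom of the scale in every control array and clearly above it in every gcm array, with a change of 2.48. CG15822 (2.39), CG43740 (2.32 and 1.98 on 2 probe sets), CG11902 (2.18), CG10591 (1.97), CG30344 (1.83), CG11670 (1.46), CG9664 (1.46), CG3841 (1.36) and CG11703 (0.82) were also called, as was the shared probe set 152093_at (2.28). The smallest called rise was that of dlg1, a polarity and synapse scaffold, with 0.62. Its levels of 4.75 to 4.81 in gcm cells and 4.13 to 4.23 in control cells were all near the bottom of the scale, and a brighter dlg1 probe set had -0.29.

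**Figure D3:**
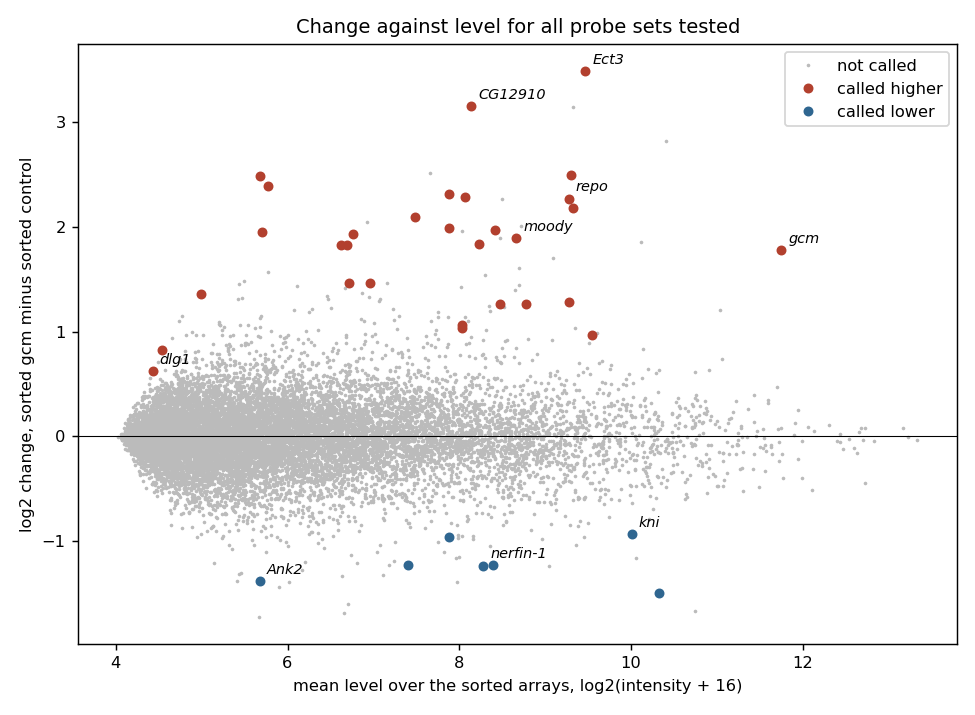
Log2 change, gcm minus control, of each of the 13966 probe sets against its mean level over the 7 sorted arrays, log2 of intensity plus 16. Called rises (red) span the scale from dlg1 near 4.5 to gcm near 12, called falls (blue) reach -1.49, and several uncalled probe sets lie above 2.

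The genes that fell include genes of young neurons. nerfin-1, a zinc-finger gene switched on in neuronal precursors and newborn neurons and needed for axon guidance, was at 9.44, 9.93 and 9.06 in gcm cells, against 10.98, 10.82, 10.94 and 11.14 in control cells. Every gcm array lay at least 0.89 below every control array, and the change was -1.49 (SE 0.20, adjusted p = 0.0133). It ran from -1.71 to -1.30 with 1 array left out, and the call was lost without control 1, control 3 or gcm 1. Its second probe set was at 7.55, 7.56 and 7.61 in gcm cells and 8.57 to 8.94 in control cells (change -1.23, adjusted p = 0.00620), and this call was kept without any 1 array. fne, an RNA-binding protein gene of the Elav family found in neurons, was at 7.32, 7.68 and 8.09 in gcm cells, against 8.99, 9.09, 8.79 and 8.82 in control cells. Its change was -1.22 (adjusted p = 0.0358), a call kept in 1 of 7 cases when 1 array was left out.

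Of 16 newborn neuron and pan-neuronal genes, nerfin-1 and fne were called lower and none higher, and the list median was -0.03. The best known neuronal marker, elav, was at 10.45 in gcm cells and 10.50 in control cells, a change of -0.05 (adjusted p = 0.980). Ank2, the neuronal ankyrin, was called on 1 of its 4 probe sets, at 4.87, 4.92 and 4.86 in gcm cells, against 6.30, 6.30, 6.35 and 6.12 in control cells (change -1.38, adjusted p = 0.0305), a call kept in 1 of 7 cases when 1 array was left out. The other 3 Ank2 probe sets had changes of 0.52, -0.27 and -0.33 and were not called. Markers of mature neurons were not called. Of these, nSyb (4.98 in gcm cells, 4.99 in control cells), para (4.31 in gcm cells, 4.19 in control cells) and VGlut (4.77 in gcm cells, 4.74 in control cells) were near the bottom of the scale, while brp (6.59 in gcm cells, 6.68 in control cells), ChAT (6.11 in gcm cells, 6.40 in control cells) and Appl (6.31 in gcm cells, 6.54 in control cells) lay above it. The summed intensity of the list was 2542 to 3000 in gcm cells and 3618 to 5568 in control cells. Without nerfin-1 and fne it was 1767 to 2080 in gcm cells and 1247 to 2886 in control cells, with overlap.

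Factors that give neurons and neuroblasts their identity were not called in either direction. Of 15 neuronal identity factors the median change was -0.12. The motor neuron homeobox gene HGTX had -1.72 (adjusted p = 0.257), with an SD of 0.91 among control arrays. It was at 4.55 to 4.78 in gcm cells, near the bottom of the scale, and at 5.81 to 7.74 in control cells. The groups did not overlap for 4 of the 15, a separation found in 9.06% of all probe sets. These were HGTX, ftz (-0.95, adjusted p = 0.215), vvl (-0.64, adjusted p = 0.171) and zfh1 (0.65, adjusted p = 0.601). Of 26 neuroblast and neuroectoderm genes 19 had negative changes and the median was -0.18. Among the temporal factors, which mark successive ages of neuroblasts, nub (-0.98, adjusted p = 0.153) and hb (-0.58, adjusted p = 0.146) were lower on every gcm array than on any control array. The others were pdm2 (-0.43), whose groups almost touched, and cas (-0.95), grh (-0.41) and Kr (-0.10), whose groups overlapped. The neuroectodermal gene SoxN had 0.63 (adjusted p = 0.475) without overlap. The pan-neuroblast genes wor (0.21), dpn (-0.18), ase (-0.07) and sna (-0.04) had changes near 0. The asymmetric division gene mira had 2.27 (95% interval 0.30 to 4.23, adjusted p = 0.522), and it belongs to the probe sets with widely different control arrays, at 9.72, 9.48 and 10.17 in gcm cells, against 5.97, 8.32, 5.78 and 10.02 in control cells. The 14 Notch pathway and E(spl) complex genes had a median of 0.10 and no member called or without overlap.

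The other falls included genes that act in the epidermis and trachea, tissues that arise beside the nervous system from the ectoderm. The gene pio, an apical matrix protein with a zona pellucida domain that tracheal tubes need, was at 7.42, 7.21 and 7.37 in gcm cells, against 8.30, 8.24, 8.48 and 8.16 in control cells (change -0.96, adjusted p = 0.0305). kni, a transcription factor of the nuclear receptor type that acts in segmentation and tracheal branching, was at 9.80, 9.37 and 9.26 in gcm cells, against 10.36, 10.44, 10.45 and 10.38 in control cells (change -0.93, adjusted p = 0.0411). The polarity gene meru, a member of the RASSF family, had -1.23 (adjusted p = 0.0403), and its brighter probe set had -0.95 (adjusted p = 0.0811). The groups did not overlap for pio, kni or meru, but the calls of pio and kni were kept in 1 of 7 cases when 1 array was left out, and that of meru in none.

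Of 16 epidermal and tracheal matrix genes 13 had negative changes, with a median of -0.53, and pio was the only one called. The matrix and apical polarity genes dpy (-0.97), verm (-0.91), uif (-0.84) and crb (-0.76) were lower on every gcm array than on any control array and were not called (adjusted p of 0.205 to 0.461). Of 10 tracheal genes 9 had negative changes, with a median of -0.54, and kni was the only one called. The summed intensity of the epidermal list was 2725 to 3227 in gcm cells and 3588 to 4349 in control cells, and that of the tracheal list 5806 to 6707 in gcm cells and 7509 to 8260 in control cells. Of 37 ribosomal protein genes 32 had positive changes, with a median of 0.24 and none called. The 11 genes of dissociation stress and heat shock had a median of -0.39 and none called. The part of other cell types in the sorted material in these values was not tested.

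**Figure D4:**
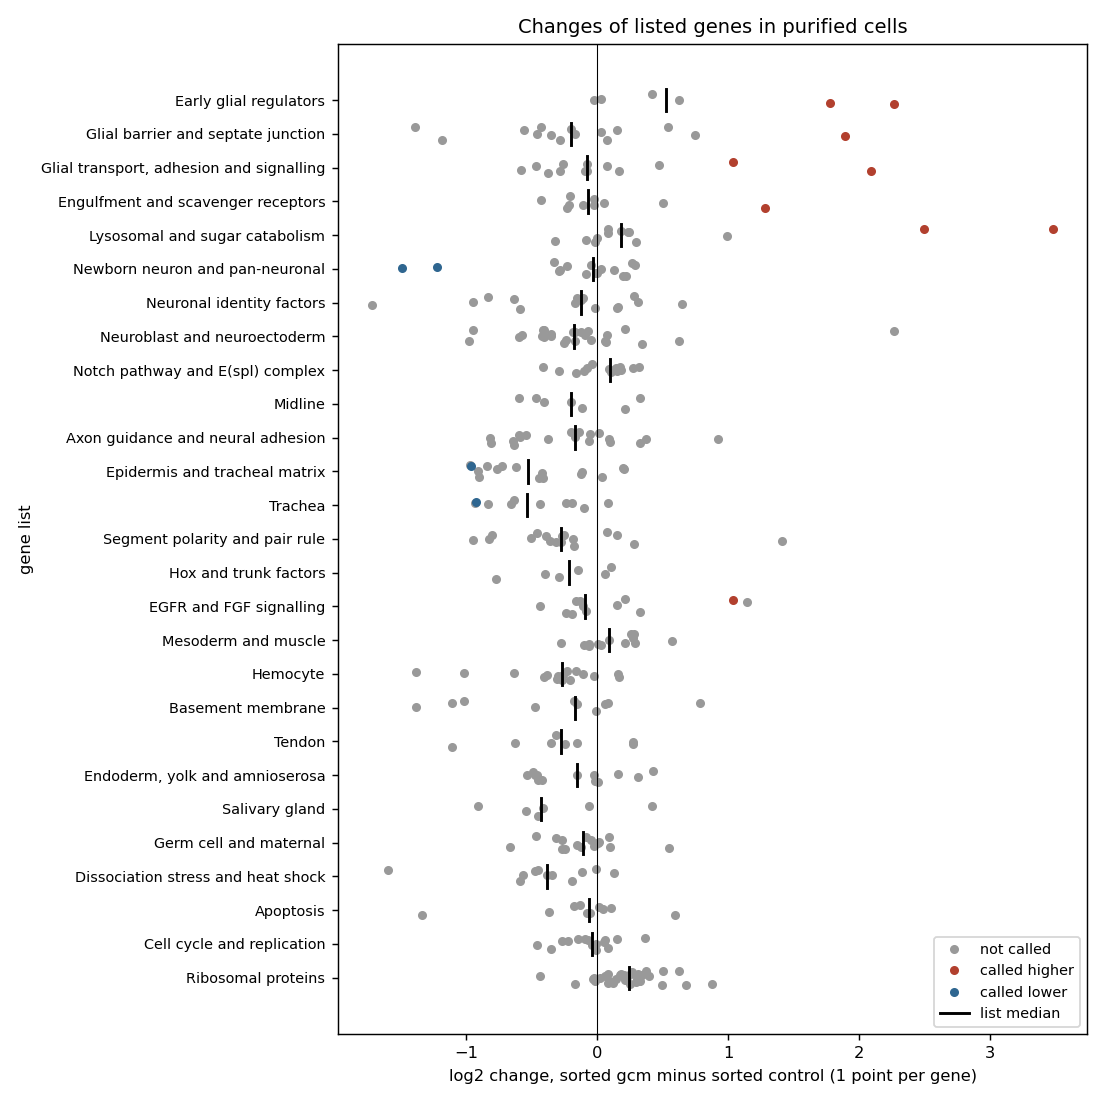
Log2 change, gcm minus control, of the measured genes of 27 lists in purified cells, 1 point per gene, with called genes in colour and the list median as a black bar. Medians run from -0.54 (trachea) to 0.52 (early glial regulators), and most points are grey.

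The remaining lists held no called gene. Their medians were -0.20 for 7 midline genes, -0.17 for 19 axon guidance and neural adhesion genes, -0.28 for 17 segment polarity and pair rule genes and -0.22 for 6 Hox and trunk factors. They were -0.17 for 10 basement membrane genes, -0.28 for 8 tendon genes, -0.43 for 6 salivary gland genes and -0.16 for 13 genes of endoderm, yolk and amnioserosa. For 16 germ cell and maternal genes, 10 apoptosis genes and 15 cell cycle genes they were -0.11, -0.07 and -0.04. In the axon guidance and neural adhesion list 6 genes had positive and 13 had negative changes. The groups did not overlap for 9 of its 19 genes, a separation found in 9.06% of all probe sets. An unadjusted limma p under 0.05 was reached by 10 of the 19, and by 1134 of all 13966 probe sets. Among the closest to a call were the adhesion gene Fas1 (-0.64, adjusted p = 0.0937), the guidance cue NetB (-0.65, adjusted p = 0.108), the tracheal gene sano (-0.84, adjusted p = 0.0831) and the TNF receptor gene grnd (-1.34, adjusted p = 0.0811). The TNF ligand gene egr had 0.59 (adjusted p = 0.227), opposite in sign to its receptor.

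Whole embryos gave a separate look at the same genes, since those arrays are shared with neither sorted group. Without the array labelled control 3, 14 probe sets were called in whole gcm embryos (0.100% of 13966), 11 higher and 3 lower. Leaving out gcm array 1, 2, 3 or 4 of the whole embryos gave 530, 6, 3 or 5 calls, and leaving out their control array 1, 2 or 4 gave 4, 41 or 7. Of the 30 rises in purified cells, 28 had a positive change in whole embryos, with a median of 0.65 and a range of -0.07 to 2.44, and 6 were called. These 6 were gcm (2.44), CG12910 (2.08), repo (1.93), Nagk (1.68), CG15822 (1.52) and 152093_at (1.16). They are 20% of the rises in purified cells and 54.5% of those in whole embryos. All 7 falls in purified cells had negative changes in whole embryos, with a median of -0.51, and none was called. The labels do not say whether arrays of equal replicate number were prepared together. With that number as a block 200 probe sets were called in whole embryos (1.43%). Among them were 9 of the 30 rises and 1 of the 7 falls, the brighter nerfin-1 probe set with -1.26 (adjusted p = 0.0344). The second nerfin-1 probe set, whose call in purified cells was kept without any 1 array, had -0.12 (adjusted p = 0.873) in that fit.

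The 37 probe sets were chosen in purified cells, so a smaller change in whole embryos can follow from that choice, and only the direct test of the difference is read here. This test, on 14 arrays normalised together, called 4 probe sets (0.0286%), with 1468 at an unadjusted p under 0.05. The count was 64 without whole gcm 1, 15 without whole control 2, 14 without sorted control 4 and 7 without sorted gcm 2. It was 2 without sorted control 1 or 3, whole control 1 or 4, or whole gcm 2, 3 or 4. The differences below are on the scale of those 14 arrays, and the whole-embryo levels beside them on that of the whole-embryo arrays alone, so one cannot be computed from the other. Ect3 differed by 3.02 (adjusted p = 0.00111), and in whole embryos it was at 9.51 with gcm and 8.45 in controls. MFS16 differed by 1.99 (adjusted p = 0.00332), and in whole embryos it was at 8.42 with gcm and 8.49 in controls. Sardh differed by 2.19 and CG3841 by 1.5 (both adjusted p = 0.0348). In whole embryos Sardh was at 4.92 with gcm and 4.87 in controls, and CG3841 at 4.17 with gcm and 4.15 in controls, all near the bottom of the scale. NimC4, with a whole-embryo level of 10.01 with gcm and 9.95 in controls, had a difference of 1.29 that was not called (adjusted p = 0.125), and gcm itself had -0.92 (adjusted p = 0.272). Over 22 alternatives MFS16 was called in 22 and Ect3 in 21, the exception being the fit with the array labelled whole control 3 (adjusted p = 0.281), while Sardh was called in 8 and CG3841 in 5 of the 21 that tested them at all. The remaining 33 calls of purified cells were not called as different between purified cells and whole embryos.

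**Figure D5:**
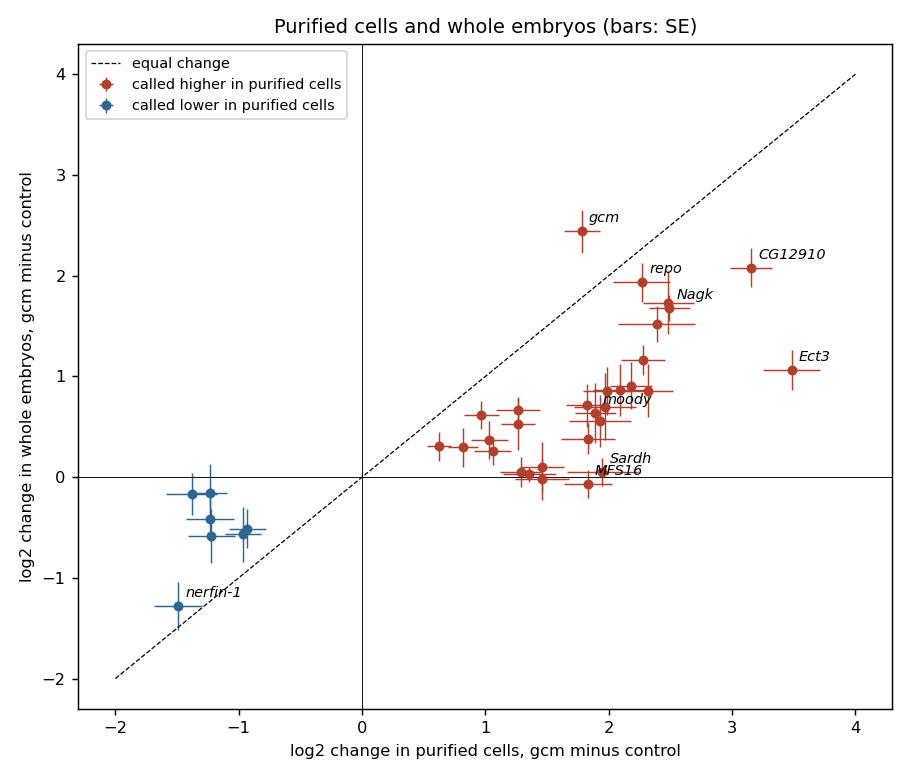
Log2 change with gcm in whole embryos (vertical) against that in purified cells (horizontal) for the 37 probe sets called in purified cells, with SE bars and a dashed line of equal change. The points were chosen for their change in purified cells, which favours a smaller change in whole embryos, and gcm at 1.78 and 2.44 lies above the line. Sardh and MFS16 lie at about 0 vertically.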

How the data were processed

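The authors deposited linear intensity values for every probe set of each array, without detection calls, and the sources used here do not state how they were computed or scaled. The 7 distinct sorted arrays were quantile normalised together and taken as log2(intensity + 16). Of 14010 probe sets 44 control probe sets were left out and dim ones were kept. Of the other 13966, 12443 have 1 symbol in the platform table, 327 have several and 1196 have none, and 12398 of the named ones matched the gene table used for names. A gene with several probe sets stands in a list by its brightest one. The gcm and control groups were compared by limma 3.58.1 in R 4.3.3 (moderated variances with an intensity trend, two-sided, Benjamini-Hochberg adjustment over all 13966), which was tested on simulated data. There 52% of 50 changes of size 1 were called, 82% of those of 1.5 and 92% of those of 2, and 6 unchanged probe sets were called. A change of about 1 can thus be missed. Whole-embryo arrays were normalised and fitted alone, and the difference between purified cells and whole embryos on 14 arrays together. The number of arrays limits the precision. Named are gcm, gcm2 and repo, the 15 largest called rises and falls with 1 symbol, and list members that were called. The plan also named as many as 3 genes of lowest p in each list. Only some of those are given here, picked with their values known. Other genes named, among them list members, the remaining calls and the probe sets with a large spread, were chosen after their values were seen. The comparison and the gene lists were chosen with earlier results of these data known. A planned search of promoter sequences was not run. In whole embryos deviations from the group mean correlated by 0.19 to 0.33 between arrays of equal replicate number and by -0.28 to 0.28 in other pairings. These ranges overlap, and the count with that block is given there too.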

Additional observations from a re-analysis of the deposited data

Results flagged for a closer look

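In the sorted arrays 5 control values stood apart from the other 3 control arrays by more than Dixon's 95% limit, among 102 probe sets examined, where chance gives about 1 in 20. All but the last given here lay on sorted control array 2. There Sardh was at 5.23, against 4.73 to 4.77 on the other control arrays, and RpS28a, a ribosomal protein gene, at 5.39, against 4.53 to 4.58. Cyp305a1 was at 5.67, against 5.97 to 6.01, and Lrt, a tendon gene, at 7.40, against 7.83 to 7.88. The second CAP probe set was at 5.30 on sorted control array 3, against 6.10 to 6.19. None of these values reaches the gcm arrays of Sardh, Cyp305a1 or CAP.

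The change with gcm was larger in purified cells than in whole embryos by a test of the difference for Ect3 (3.02), Sardh (2.19), MFS16 (1.99) and CG3841 (1.5). Of the 21 alternatives that tested them, Sardh was called in 8 and CG3841 in 5, and both were near the bottom of the scale in whole embryos.

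On the array labelled whole control 3, which the main whole-embryo values leave out, gcm was at 13.10, against 8.07 to 8.66 in the remaining whole controls, and repo at 10.77, against 6.14 to 6.32. On the sorted gcm arrays, normalised with all arrays, gcm was at 13.01 to 13.13 and repo at 10.67 to 11.27. The gene moody was at 9.79 on whole control 3, within the 9.72 to 10.14 of the sorted gcm arrays. Ect3 (11.20, against 12.15 to 12.36) and Nagk (10.63, against 11.01 to 11.25) were lower on whole control 3 than on any sorted gcm array. Both were above the remaining whole controls (7.90 to 8.60 for Ect3, 7.94 to 8.07 for Nagk). On the whole gcm arrays the mean levels were 11.06 for gcm, 8.34 for repo and 6.88 for moody. Those means come from whole-embryo arrays normalised alone, so their scale is not the same. What this array holds was not tested.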

How the results depend on the processing

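With 3 gcm arrays and 4 control arrays, the number of calls in purified cells depended on the processing, while no called gene changed direction under any of 20 alternatives. The count of 37 (30 higher, 7 lower) became 20 with the values as deposited (20 higher, 0 lower), 25 with median centring (23 and 2), 49 without the dimmest 40% of probe sets (34 and 15), 57 with array weights (37 and 20), 108 in a fit of 14 arrays (71 and 37), 17 in a fit of all 15 (12 and 5) and 123 with both copies of the twice-deposited array counted (71 and 52). With values as deposited 20 of the 37 calls were kept, with array weights 36 and in the 14-array fit 36. Leaving out 1 array gave 18 to 39 calls. In the sorted arrays deviations from the group mean correlated by 0.12, 0.21 and 0.03 for equal replicate numbers, and by -0.18 to 0.09 for other numbers. The correlation was -0.04 for control 3 if the twice-deposited array is number 3. Whether replicate numbers pair the sorted arrays cannot be told from these values. The replicate block gave 14 calls with the twice-deposited array as number 2 and 9 as number 3, all higher. Under all 20 alternatives Ect3, Nagk, CG9541 and 152093_at were called. The change of gcm2 turned to -0.0164 with both copies counted and ran from -0.0652 to 0.112 when 1 array was left out, and that of kirre, a muscle gene, ran from -0.00641 (without gcm 4) to 0.462. Of 81 recomputed list medians 7 turned from negative to positive, with median centring or with values as deposited. They were in the newborn neuron, cell cycle, EGFR and FGF, basement membrane and apoptosis lists. The Notch list was the only one to move by more than its typical SD among control arrays, to 0.28 with values as deposited. The largest shift, 0.26, was that of the early glial regulators, to 0.27 with the mean over the probe sets of each gene.

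In whole embryos the count of 14 (11 higher, 3 lower) stayed 14 with values as deposited but split into 5 higher and 9 lower. It became 22 without the dimmest probe sets, 200 with the replicate block and 0 with the array labelled control 3 (limma, with 1085 at an unadjusted p under 0.05), and 3 (without gcm 3) to 530 (without gcm 1) when 1 array was left out. The 4 differences between purified cells and whole embryos became 7 with a pseudocount of 64, 2 with a pseudocount of 1, median centring, either replicate block or the dimmest left out, 1 with the array labelled whole control 3, and 2 to 64 (without whole gcm 1) when 1 array was left out. The causes of these shifts were not tested.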

Other observations

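Several probe sets had larger mean changes than most called genes and were not called, with control arrays that differed widely among themselves. They were picked after their values were seen. Hsc70-4, a constitutive heat shock cognate chaperone, was at 11.05, 11.11 and 11.20 in gcm cells, against 6.18, 9.24, 5.51 and 10.99 in control cells (change 3.14, adjusted p = 0.455). The RNA helicase gene Rm62 was at 11.81, 12.10 and 12.14 in gcm cells, against 7.30, 10.26, 6.96 and 12.28 in control cells (change 2.82, adjusted p = 0.519). In both, control array 4 was close to the gcm arrays, control 2 lay between, and controls 1 and 3 were far below. The kinase gene SRPK had the same order on 1 probe set, with 8.10, 7.92 and 8.28 in gcm cells, against 4.86, 6.70, 4.66 and 7.99 in control cells, while its second probe set was at 8.29, 8.24 and 7.91 in gcm cells, against 8.16, 7.86, 7.87 and 7.90 in control cells. One probe set of CNBP, a zinc-finger gene, was at 8.22, 9.60 and 9.45 in gcm cells, against 4.77, 6.60, 5.26 and 9.69 in control cells, and its brightest probe set was at 11.39, 11.41 and 11.15 in gcm cells, against 11.18, 11.22, 10.87 and 11.08 in control cells. Probe sets of the same gene thus differed in whether they showed the spread.

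The gene nemy, a cytochrome b561 family gene of the nervous system, lay just outside the threshold, with 8.74, 9.43 and 9.28 in gcm cells, against 7.27, 7.83, 7.40 and 6.27 in control cells (change 1.96, adjusted p = 0.0542). Its groups did not overlap.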
